A study of Mus musculus with 8 samples.

Results

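The genes for the proteins of the cytosolic ribosome were taken by their symbols: those that begin with Rpl or Rps and a number, Rplp0 to Rplp2, and Rpsa, without S6 kinases, rows named as pseudogenes and antisense models. The rule kept 93 of 45777 genes in the table. By annotation and symbol they were 46 large subunit genes, 31 small subunit genes, 10 paralogs or retrogenes, 5 genes annotated as pseudogenes that carry an ordinary symbol, and Rps19bp1, which encodes a protein that binds RPS19 and is not itself part of the ribosome. Counts were high enough to test 90 of them. The others were the paralogs Rpl10l and Rpl39l, each with 0 counts in all libraries, and Rpl3l, with 3 and 4 counts in the only libraries where it had any.

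The cytosolic ribosome is built from ribosomal RNAs and a large set of proteins, most of them encoded by a single active gene each. Its small subunit reads the messenger RNA and its large subunit joins the amino acids, so the genes for both are needed in similar amounts and are among the most strongly expressed in dividing cells. Many of their messenger RNAs begin with a run of pyrimidines, the terminal oligopyrimidine tract, through which the growth-regulating kinase mTOR and the RNA-binding protein LARP1 control their translation and stability. In the subventricular zone, the germinal layer beside the lateral ventricle, protein synthesis is known to rise when neural stem cells leave quiescence.

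The libraries came from mouse neural stem cells of that zone, 4 with the genotype label S1pr1 deletion and 4 controls labelled wild type. S1PR1 is a receptor for sphingosine-1-phosphate, a lipid that apolipoprotein M carries on high-density lipoprotein (HDL). Within each genotype, 2 libraries came from cells given HDL labelled ApoM+ and 2 from cells given HDL labelled ApoM-, and no untreated cells are among the samples. How the deletion was made and whether the replicates were separate animals or cultures is not given in the sources used here, so p-values measure the spread between these libraries, which may be technical.

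The table names its libraries by a code of 2 letters and a number, and the labels do not spell out the codes. The first letter was read as the genotype: C begins only the titles of the control samples, and G was read as S1PR1-deficient by elimination. The second letter, H or V, could not be tied to either HDL preparation, so the libraries are called GH, GV, CH and CV throughout. The 8 libraries held between 39619305 and 45698186 counts. Levels are given as CPM, the counts of a gene scaled to a common library total, after adjusting for library composition.

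The level of S1pr1 did not bear out the reading of G as receptor-deficient. It stood at 23.2 and 21.2 CPM in GH, 22.2 and 22.4 CPM in GV, 25.4 and 23.2 CPM in CH and 20.8 and 16.0 CPM in CV. The G minus C difference, averaged over both letters, was 0.08 on the log2 scale (adjusted p = 0.569), and the G and C libraries overlapped. Counts of a whole gene check nothing if the deletion leaves most of the transcript in place, and its position is not given in the sources used here. The directions below are therefore those of the library codes.

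Neural stem cell markers were present, though some only at a very low level. All 10 had counts, with summed levels of 4870 to 5340 CPM in G and 5620 to 5770 CPM in C libraries. Fabp7, Vim, Slc1a3 and Nes had the highest levels of the list. Gfap stood at 0 to 0.85 CPM, Prom1 at 0.95 to 2.60 CPM and Hes5 at 1.25 to 3.29 CPM over the 8 libraries. Of 8 microglial markers, 6 were at 0 in all libraries, and the list summed to at most 0.0771 CPM. The 8 endothelial markers summed to 2.98 to 3.66 CPM in G and 3.78 to 5.13 CPM in C libraries. Summed pericyte and fibroblast markers were 166 to 202 CPM in G and 130 to 214 CPM in C libraries, with Pdgfrb, Lum, Col1a2 and Col3a1 at 0. Nearly all of this sum was Cspg4, at 129.9 to 213.5 CPM, which is also in the oligodendrocyte lineage list. Neuroblast markers summed to 74.7 to 88.1 CPM in G and 56.7 to 82.1 CPM in C libraries, with Dlx5 at 0. Oligodendrocyte lineage markers summed to 1650 to 1700 CPM in G and 1430 to 1960 CPM in C libraries. Ependymal markers summed to 106 to 116 CPM in G and 93.7 to 105 CPM in C libraries, with Pifo and Tmem212 at 0.

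Windows of 30 bases around the annotated start of transcription show what such a tract looks like in 5 of the 68 genes, out of 93, that have a RefSeq entry. Of these, 4 have among the longest tracts, and Rplp2 is the gene whose genotype difference differed between H and V with the smallest p. The windows run 5′ to 3′ on the gene's strand, from 10 bases before the start, on build GRCm38.p6. Capitals mark a C at the start position followed by at least 4 further C or T bases.
Rplp2, chr7:141447641-141447670, plus strand: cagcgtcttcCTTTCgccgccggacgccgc
Rps10, chr17:27635225-27635254, minus strand: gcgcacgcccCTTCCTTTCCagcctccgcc
Rpl15, chr14:18270967-18270996, minus strand: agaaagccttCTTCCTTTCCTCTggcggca
Rpl35, chr2:39005112-39005141, minus strand: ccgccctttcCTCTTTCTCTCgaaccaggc
Rps6, chr4:86857348-86857377, minus strand: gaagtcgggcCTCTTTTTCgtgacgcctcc

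Such a tract stood exactly at the annotated start in 22.1% of the ribosomal protein genes with an entry, against 3.01% of all 27025 genes with one. A run of at least 8 pyrimidines within 25 bases on either side of the start was present in 50% of them and in 17.7% of all genes. Rpl41 and Rps26 have no such tract at their annotated start, as their windows show.
Rpl41, chr10:128549149-128549178, minus strand: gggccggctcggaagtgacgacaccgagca
Rps26, chr10:128626487-128626516, minus strand: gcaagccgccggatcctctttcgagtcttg
A window without a tract says only that the annotated base does not begin one. In Rps26 a run of pyrimidines stands a few bases further on. The letters CCGGAAG, read on either strand within 250 bases before and 50 bases after the start, were found in 38.2% of the ribosomal protein genes, in 17.8% of the genes tested and in 9.93% of all genes with an entry. The genotype difference under V, described next, had a median of -0.48 among the 13 subunit genes with a tract at the start and -0.45 among the 44 without. The values overlapped, from -0.693 to -0.254 with a tract and from -1.221 to -0.215 without. The median transcript length was 638.5 nucleotides with a tract and 732.8 without, and the part of length in these medians was not tested.

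Ribosomal protein transcripts were lower in GV than in CV libraries across both subunits. Of the 90 genes tested, 84 fell and 0 rose at an adjusted p below 0.05, while 13.4% of all 17644 genes tested fell. The median difference was -0.45 on the log2 scale, against -0.02 over all genes tested. All 46 large subunit genes fell, with a median of -0.45, and all 31 small subunit genes fell, with a median of -0.47. Together the 93 genes held 4.91% and 5.34% of all counts in GV, 6.33% and 6.78% in CV, 6.33% and 6.05% in GH and 6.14% and 6.37% in CH. In 87 of the 90 genes both GV libraries lay below all the other 6 libraries, which was so for 13% of all genes tested. In these bulk libraries, fewer cells of a type and less of a transcript per cell cannot be told apart, and a level relative to the library says nothing of the total RNA of a cell.

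**Figure D1:**
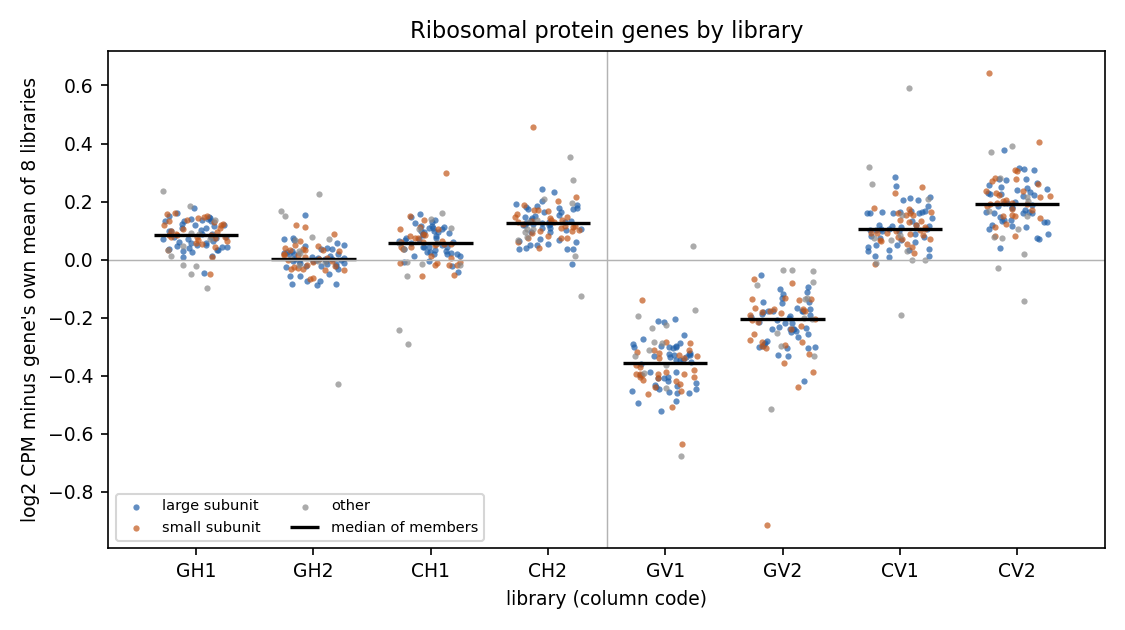
Levels of the ribosomal protein genes in each library, drawn as the log2 difference of each gene's level (CPM plus 0.5) from its own mean over the 8 libraries, by library code on the horizontal axis. Each point is a gene and the bars are medians. The medians were -0.36 and -0.21 in the GV libraries and between 0.00 and 0.19 in the other 6.

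The fall was not equal among genes. Rps16, a small subunit protein on chromosome 7, showed the largest difference of the subunit genes. Its level was 143 and 117 CPM in GV, against 260 and 346 CPM in CV libraries, so the groups did not overlap. The difference was -1.22 (SE 0.12, adjusted p = 0.000114). Rps16 may share reads with its processed copy Rps16-ps2. Rps26, another small subunit protein, had 358 and 377 CPM in GV and 587 and 652 CPM in CV libraries, a difference of -0.75 (SE 0.07, adjusted p = 5.14e-05). Rpl41, which encodes the shortest large subunit protein, had 752 and 789 CPM in GV and 1285 and 1306 CPM in CV libraries. It gave -0.75 (SE 0.05) and the smallest p of the ribosomal protein genes, with an adjusted p of 5.98e-06. At the other end, Rpl6 of the large subunit had 773 and 831 CPM in GV and 907 and 955 CPM in CV libraries. Its difference of -0.21 (SE 0.06, adjusted p = 0.0146) was among the smaller ones of the subunit genes, and the groups still did not overlap.

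**Figure D2:**
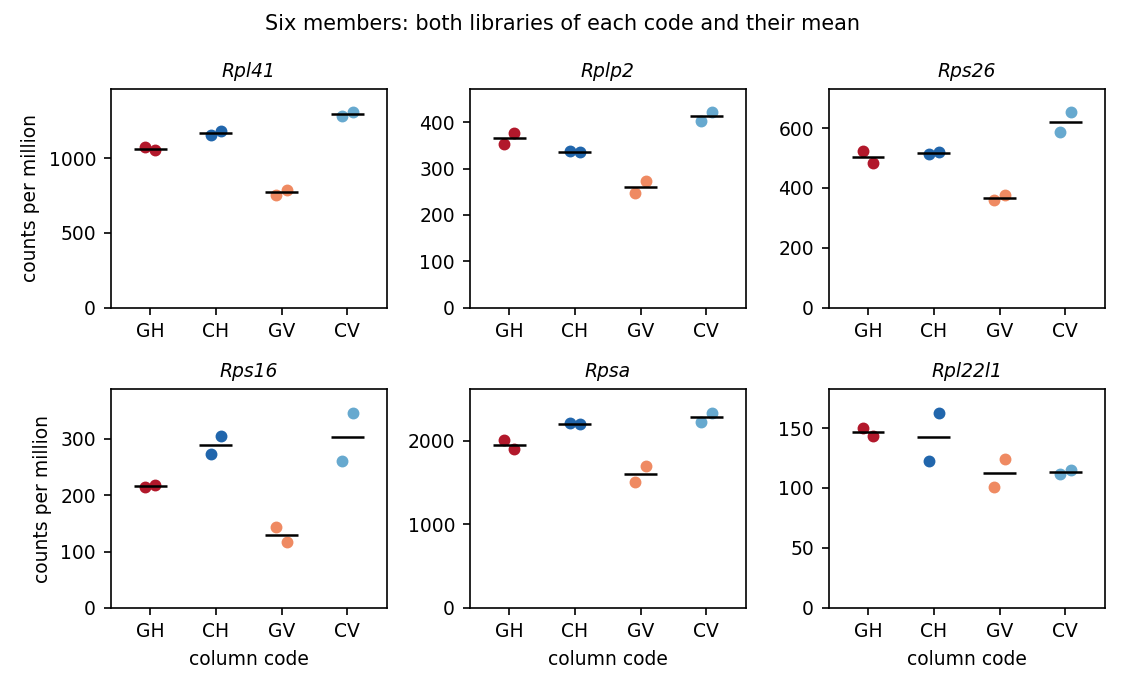
Levels of 6 genes in CPM, with a linear axis from 0, in each of the 8 libraries; each point is a library, and horizontal bars mark the mean of the pair. The GV points lie lowest for Rpl41, Rplp2, Rps26, Rps16 and Rpsa, while for Rpl22l1 they overlap those of CV.

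The stalk of the large subunit recruits and activates the translation factors that use GTP, and consists of Rplp0 and the acidic proteins Rplp1 and Rplp2. Rplp2 had 247 and 274 CPM in GV and 404 and 422 CPM in CV libraries. Rplp1 had 618 and 752 CPM in GV and 991 and 1007 CPM in CV libraries. Rplp0 had 1341 and 1506 CPM in GV and 1753 and 1844 CPM in CV libraries. All 3 fell, without overlap, by 0.66 (SE 0.06), 0.55 (SE 0.08) and 0.34 (SE 0.06) in that order. Their adjusted p-values were 0.000101, 0.000673 and 0.00177.

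Rpl5 and Rpl11 bind the 5S ribosomal RNA and, when ribosome assembly is disturbed, can bind MDM2 and stabilise p53. Rpl11 had 527 and 589 CPM in GV and 820 and 865 CPM in CV libraries, and fell by 0.59 (SE 0.06, adjusted p = 0.000176). Rpl5 had 852 and 929 CPM in GV and 1054 and 1107 CPM in CV libraries, and fell by 0.28 (SE 0.06, adjusted p = 0.00361). Both fell, Rpl11 by the larger value, though the difference between them was not tested. Rps6, the substrate of S6 kinase whose phosphorylation serves as a readout of mTOR activity, had 623 and 696 CPM in GV and 839 and 897 CPM in CV libraries. Its fall was 0.40 (SE 0.06, adjusted p = 0.000928). Rps27a, made as a fusion with ubiquitin, had 478 and 576 CPM in GV and 657 and 699 CPM in CV libraries, a fall of 0.36 (SE 0.08, adjusted p = 0.00633).

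Rpsa, a small subunit protein also known as a laminin-binding protein, had the highest level of the ribosomal protein genes in CPM. Its level was 1509 and 1698 CPM in GV and 2221 and 2332 CPM in CV libraries, a fall of 0.51 (SE 0.06, adjusted p = 0.000233). It was followed by Rplp0, Rpl7, Rps2 and Rpl3, and the mean levels of these 5 genes ranged from 2008 CPM for Rpsa to 1396 CPM for Rpl3. Rpl3, which lies near the peptidyl transferase centre, fell by 0.24 (SE 0.05, adjusted p = 0.00642). Rps2, at the entry of the messenger RNA channel, fell by 0.41 and Rpl7 by 0.27. CPM does not divide by transcript length, so this order is one of counts and not of molecules.

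Among the 7 paralogs and retrogenes tested, 3 fell under V. The paralogs Rps27l and Rpl36al did, by 0.27 (SE 0.08, adjusted p = 0.033) and 0.33 (SE 0.07, adjusted p = 0.00461), along with the retrogene Rpl37rt, which fell by 0.82 (adjusted p = 0.00771) at 3.16 and 4.40 CPM in GV and 6.25 and 7.04 CPM in CV libraries. Rpl22l1, a paralog of Rpl22 that also acts on splicing in other contexts, had 101 and 124 CPM in GV and 112 and 115 CPM in CV libraries. These groups overlapped, and its difference was -0.01 (SE 0.12, adjusted p = 0.965). Rpl22 itself, with 325 and 363 CPM in GV and 428 and 420 CPM in CV libraries, fell by 0.30 (SE 0.07, adjusted p = 0.00531). Rpl7l1, which takes part in assembly of the large subunit, gave -0.08 (SE 0.06, adjusted p = 0.353). Rpl32l, with 6 to 15 counts in the V libraries, and Rps27rt, with 68 to 123, did not pass either (adjusted p = 0.538 and 0.0528). Rps27l also missed the threshold without composition scaling (adjusted p = 0.0849), with the trend on transcript length removed (-0.09, adjusted p = 0.331), without CV1 (0.123) and without GV1 (0.23). Without GV1, Rpl7 (0.0632) and Rpl37rt (0.0628) missed it as well. Among the named genes, Rps27l, Rpl36al, Rpl37rt, Rps27a, Rpl7, Rpl3 and Rpl35a missed it without CV2. Their differences in that fit were -0.273, -0.278, -0.726, -0.319, -0.209, -0.195 and -0.302, in that order. Rpl35a also missed it with the length trend removed (-0.142, adjusted p = 0.0535). Genes that were not named are not part of these lists.

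Of the 5 genes annotated as pseudogenes, Rps12l1, Rpl6l and Rps3a3 fell. Rps12l1 fell by 0.90 (adjusted p = 0.00206), with 3.42 and 3.10 CPM in GV and 5.91 and 6.24 CPM in CV libraries. Rps3a2 and Rps3a3 are near copies of Rps3a1 by name, and their counts were of the same order, so reads may be split among the 3 and their values are uncertain. In CPM, Rps3a1 had 364 and 419 in GV and 457 and 469 in CV libraries, and Rps3a3 had 366 and 410 in GV and 432 and 455 in CV libraries. Rps4l had 0 to 20 counts in any library, and its difference of -2.47 did not pass (adjusted p = 0.172). Rps19bp1, which is no ribosomal protein, fell by 0.32. With the length trend removed, neither Rps19bp1 (-0.21, adjusted p = 0.0678), Rps3a3 (-0.07, adjusted p = 0.298) nor Rps3a1 (-0.14, adjusted p = 0.0545) passed.

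Under H the same comparison passed for 0 of the 90 genes in edgeR's test, against 1.81% of all genes in either direction. At an unadjusted p below 0.05 there were 10, all lower in GH, against 6.82% of all genes that were lower at that p, and DESeq2 called 1. The median difference was -0.04. Both GH libraries lay below both CH libraries in 28 genes, against 22.4% of all genes, and above them in 2, against 23.4%. Rps16 had 214 and 218 CPM in GH and 273 and 305 CPM in CH libraries, without overlap, a difference of -0.42 (SE 0.12, adjusted p = 0.105). Rpl4, a large subunit protein that lines the exit tunnel, had 1041 and 1035 CPM in GH and 1201 and 1187 CPM in CH libraries, a difference of -0.20 (SE 0.05, adjusted p = 0.0664). Rplp2 had 354 and 377 CPM in GH and 338 and 335 CPM in CH libraries, the opposite order, with a difference of 0.12 (SE 0.06, adjusted p = 0.448).

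**Figure D3:**
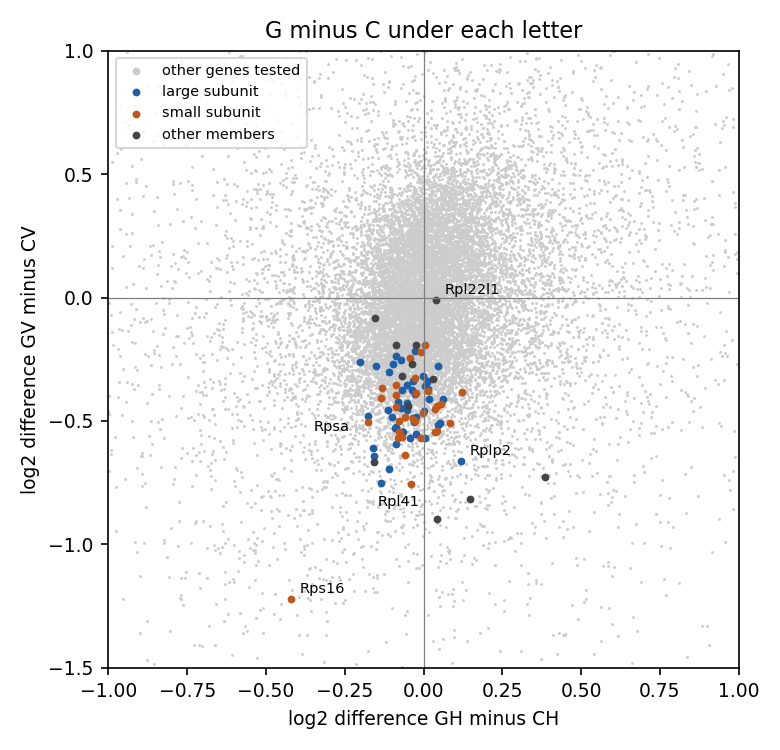
The G minus C log2 difference under H (horizontal axis) and under V (vertical axis) for each gene tested, with the ribosomal protein genes coloured by class and other genes in grey. The ribosomal protein genes lie near 0 under H, with a median of -0.04, and below 0 under V, with a median of -0.45; Rps4l, at -0.60 and -2.47, and some other genes lie outside the axes.

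The genotype difference itself differed between H and V in many of these genes. The test of that difference, the G minus C difference under H minus the one under V, passed with a positive value for 55 of the 90 genes and with a negative value for 0, against 3.93% of all genes with a positive value. Its median was 0.41, against 0.02 over all genes. These were 32 large subunit genes, 20 small subunit genes, the paralogs or retrogenes Rpl36al and Rpl37rt, and the pseudogene Rps12l1. Rplp2 had the smallest p, with a value of 0.78 (SE 0.09, adjusted p = 0.00168), followed by Rpl41 with 0.62 (SE 0.07, adjusted p = 0.00169) and Rps26 with 0.71 (SE 0.09, adjusted p = 0.00345). Rps10 and Rpl37a, proteins of the small and large subunit, gave 0.58 and 0.56 (SE 0.08 each). The test did not pass for Rps6, at 0.31 (adjusted p = 0.0507), or for Rpl5, at 0.13 (adjusted p = 0.35). The number that passed moved between 3 and 73 when 1 library was left out: it was 3 without GH1, 4 without CV2, 10 without GH2, 30 without CH2 and 73 without GV2.

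Averaged over both letters, 75 of the 90 genes fell in G relative to C libraries, against 10.2% of all genes, with a median of -0.24. The smallest p-values included those of Rpl41, Rps16, Rps26 and the large subunit gene Rpl31. Rpl31 had 769 and 709 CPM in GH and 550 and 594 CPM in GV, against 799 and 847 CPM in CH and 860 and 927 CPM in CV libraries, a fall of 0.40 on average. The average joins the lower values under V with values near 0 under H. Leaving out CV2 or GH2 reduced the count to 49. Under V alone the count was between 65 and 84 in the 8 fits that left out a library.

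Within the G libraries, H was set against V. In this comparison 52 of the 90 genes rose in GH over GV, against 1.14% of all genes, and 0 fell. The median was 0.35. The 52 were 31 large and 21 small subunit genes. Rpl41 had 1076 and 1052 CPM in GH and 752 and 789 CPM in GV libraries, a rise of 0.47 (SE 0.05, adjusted p = 0.00226). Rps10 had 458 and 440 CPM in GH and 315 and 346 CPM in GV libraries, a rise of 0.44 (SE 0.06, adjusted p = 0.00806). Both GH libraries lay above both GV libraries in 88 of the 90 genes, against 25.1% of all genes. The count of calls rested on single libraries: it was 0 without GH1, 1 without GH2, 3 without GV1, 29 without CV1, 25 without CV2 and 81 without GV2.

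Within the C libraries, H was likewise set against V. Only Rplp2 and Rps26 of the 90 passed in edgeR's test, both lower in CH than in CV, and 4.99% of all genes were lower. At an unadjusted p below 0.05 there were 9 lower and 2 higher, against 12.7% and 13% of all genes, and DESeq2 called 5. Rplp2 had 338 and 335 CPM in CH and 404 and 422 CPM in CV libraries, a difference of -0.30 (adjusted p = 0.0139). Rps26 had 514 and 520 CPM in CH and 587 and 652 CPM in CV libraries, a difference of -0.26 (adjusted p = 0.027). The median over the 90 genes was -0.07, and between 0 and 4 genes passed when 1 library was left out. Neither Rplp2 nor Rps26 passed without CH2 or without CV2. The letter comparison averaged over both genotypes passed for 7 genes, all higher in H, against 1.43% of all genes. They were Rpl22, Rpl22l1, Rpl30, Rpl35a, Rpl41, Rps12 and Rps29. Between 0 and 55 genes passed when 1 library was left out, so this count was not stable. Rpl22l1 was the only gene among them that did not also move with genotype under V.

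The comparisons share libraries: GV enters the genotype difference under V, the letter difference within G and the difference between the genotype contrasts, and CV enters 2 of these as well. Their values for Rpl41 were -0.75 for GV against CV, 0.47 for GH against GV and 0.62 for the difference between the contrasts. For Rps16 they were -1.22, 0.73 and 0.80, and for Rpsa they were -0.51, 0.28 and 0.33.

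Transcript length moved with the V comparison. Most ribosomal protein transcripts are short, and among other genes the median G minus C difference under V was -0.20 for the 812 with transcripts below 500 nucleotides, -0.14 for those of 500 to 750, -0.13 for those of 750 to 1000 and 0.03 for those of 3000 to 6000. The ribosomal protein genes in the first 3 of these ranges had medians of -0.54, -0.46 and -0.35. Among 207 other genes shorter than 1000 nucleotides with a mean of at least 173 CPM, 101 fell and 26 rose under V, with a median of -0.19. Of the same 207 genes, 33 (15.9%) rose in GH over GV and 1 fell. The difference between the contrasts passed with a positive value for 62 of them (30%) and with a negative value for 13. In a further fit each library's trend on transcript length was removed, a setting chosen after seeing the data. There 75 ribosomal protein genes fell under V with a median of -0.31, all of them among the 84. Of the 15672 genes in that fit, 14% fell. The letter comparison in G then passed for 30 genes, and the difference between the contrasts for 42, each with a positive value. The shares of all genes with such a value were 0.498% and 4.19%.

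**Figure D4:**
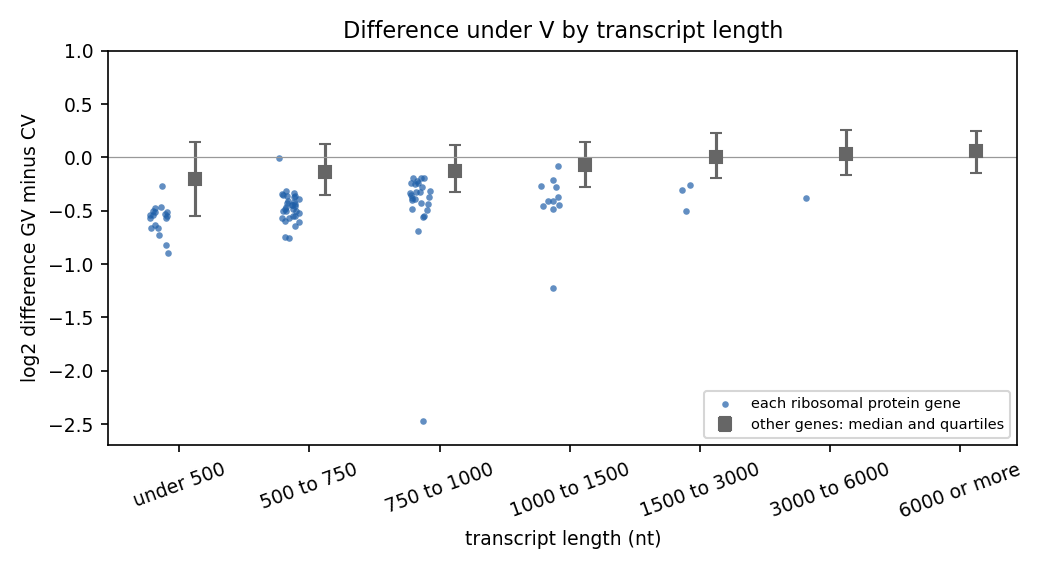
G minus C log2 difference under V by transcript length in nucleotides, with a point for each ribosomal protein gene and, for other genes tested, a square at the median with bars to the quartiles. In each length range that holds ribosomal protein genes, their median lies below that of other genes; the range of 3000 to 6000 holds 1 of them, at -0.38.

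Other RNA classes also differed between these libraries. The signal recognition particle RNAs Rn7s1 and Rn7s2 together held 1.49% and 1.64% of counts in GV, 3.72% and 3.13% in CV, 2.39% and 2.47% in GH and 3.39% and 3.17% in CH libraries. The short nuclear RNA Rn7sk held 0.245% and 0.317% in GV, 0.645% and 0.533% in CV, 0.497% and 0.443% in GH and 0.594% and 0.558% in CH libraries. The long nuclear RNA Malat1 held 1.38% and 1.17% in GV, 0.843% and 0.851% in CV, 1.01% and 1.05% in GH and 0.822% and 0.858% in CH libraries. These 3 differed without overlap between G and C under H as well, where no ribosomal protein gene passed. The mitochondrial messenger RNA of COX1 held 1.42% and 1.45% in GV, 0.948% and 0.966% in CV, 1.25% and 1.19% in GH and 1.02% and 1.22% in CH libraries. The summed neural stem cell markers were also lower in G than in C libraries, as given above, but not each marker. Averaged over both letters, 2 of the 10 fell, Fabp7 and Nes, against 10.2% of all genes, and 4 had values above 0. Under V, 4 of them fell and Slc1a3 rose, by 0.18 (adjusted p = 0.0195). The part of these RNAs and markers in the ribosomal protein result was not tested.

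Genes that work with the ribosome, in lists drawn up from textbook knowledge, fell in part, and 13.4% of all genes fell and 11.6% rose under V. The ribosomal proteins Fau and Rack1, whose symbols the rule does not match, fell under V by 0.62 and 0.40, and both rose in GH over GV. Of 18 genes for translation factors and related proteins, 9 fell and 2 rose under V, with a median of -0.18. Eif3k, a subunit of an initiation factor, fell by 0.45. The elongation factor Eef2 and the poly(A)-binding protein Pabpc1 both fell by 0.27. The elongation factor Eef1a1, named after its values were seen, gave -0.01 (adjusted p = 0.908). The other elongation factor genes of the list, Eef1b2, Eef1d and Eef1g, fell as Eef2 did, with differences of -0.31, -0.309 and -0.265. Of 40 genes for ribosome biogenesis, 16 fell and 0 rose under V, with a median of -0.15. Under H their median was nearly the same, -0.15, with 38 of the 40 values below 0, against 8711 of all 17644 genes. In that comparison 1 of the 40 fell, as did 1.05% of all genes. The median of the difference between the contrasts was 0.00 for these 40. The gene that fell under H was Nop2, a methyltransferase for ribosomal RNA, at -0.38 (adjusted p = 0.0152). Under V, Fbl, which methylates ribosomal RNA within small nucleolar particles, fell by 0.42, and the nucleolar protein Mybbp1a fell by 0.37. Of 15 regulators of ribosome synthesis and translation, 6 fell and 2 rose under V. Myc, which drives transcription of ribosomal genes, fell by 0.57, but here CV stood above all other codes. Its level was 52 and 58 CPM in GV and 83 and 81 CPM in CV libraries. In GH it was 60 and 57 CPM, and in CH 62 and 56 CPM. Its CH libraries were lower than CV by 0.46 (adjusted p = 0.00397). Eif4ebp1, a translation repressor held in check by mTOR, fell by 0.53, with GV the lowest and CV the highest code. The regulators that rose were the S6 kinase gene Rps6kb1, by 0.40 (adjusted p = 0.0066), and Mdm2, by 0.22 (adjusted p = 0.0147). For Mdm2, CV stood lowest, at 92.1 and 88.8 CPM, against 103.3 and 107.8 CPM in GV libraries. Its level was 98.5 and 97.5 CPM in GH and 112.8 and 114.2 CPM in CH libraries. CH was higher than CV by 0.33 (adjusted p = 0.00571). Cdkn1a, a cell cycle inhibitor and target of p53, gave -0.14 under V (adjusted p = 0.079). Mitochondrial ribosomal protein genes, a list added after seeing the data, fell under V in 36 of 82, with a median of -0.23.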

How the data were processed

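Per the labels' protocols, total RNA was depleted of ribosomal RNA and made into stranded libraries. Tools listed in the submitters' processing notes, on build GRCm38, include HISAT2 2.1.0 and StringTie 2.1.3b, beside Trimmomatic and bcl2fastq 2.20.0. Per the file headers, the deposited table gives read counts, FPKM and TPM per gene. Only the counts were used, as deposited, and 16 per-sample columns were not. How reads that match several genes were counted is not given in the sources used here.

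Genes passing filterByExpr (minimum count 10) were fitted with edgeR 4.0.16 in R 4.3.3: TMM scaling, quasi-likelihood test, a mean for each of 4 codes (4 residual degrees of freedom), and Benjamini-Hochberg adjustment over all 17644 genes in each of 7 comparisons. A gene is said to rise or fall at an adjusted p below 0.05. Fold changes are log2, tested for the first-named group minus the other, and the SE is derived from the test statistic. Transcript lengths are GENCODE medians per gene, known for 88.8% of genes tested. The code was tested on simulated data. DESeq2 1.42.0, scaling, filter, replicate block, length trend and leave-one-out alternatives were run. Start windows are from RefSeq. Replicate libraries differed by more than counting noise.

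The genes, lists and tests were chosen with earlier results of these data known. Named genes were the 5 with the smallest p in each comparison, the 5 highest and 5 lowest in level, fixed functional lists, and the 3 with the smallest p of each other list. Some of these genes are not reported here. Other members were named after their values were seen.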

Additional observations from a re-analysis of the deposited data

Results flagged for a closer look

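The genotype difference under H minus the one under V passed the test (adjusted p below 0.05, edgeR) in 16 of the named genes reported here. In log2 it was 0.78 for Rplp2, 0.48 for Rplp1 and 0.30 for Rplp0, the stalk proteins. It was 0.62 for Rpl41, 0.49 for Rpl31, 0.56 for Rpl37a and 0.51 for Rpl11 of the large subunit. In the small subunit it was 0.80 for Rps16, 0.71 for Rps26, 0.58 for Rps29, 0.58 for Rps10, 0.47 for Rps12 and 0.33 for Rpsa. It was 0.36 for the paralog Rpl36al, 0.96 for the retrogene Rpl37rt and 0.94 for the pseudogene Rps12l1. With the length trend removed, 5 of the 16 no longer passed: Rplp0 (0.18), Rplp1 (0.27), Rpl36al (0.22), Rpl37rt (0.72) and Rps12l1 (0.69). Of the 16, 3 passed without GH1, 4 without CV2, 5 without GH2 and 9 without CH2.

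In the 4 control libraries, CV2 stood apart, as the highest library, for 2 genes. Its gap to the next library, as a share of the whole range, was 0.834 for Rpsa and 0.831 for Rps6 (Dixon's test). Chance gives about 5% of groups such a gap, and 66 groups were looked at.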

How the results depend on the processing

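The medians of the ribosomal protein genes kept their sign in all 7 comparisons under each of the 14 alternatives. The counts of ribosomal protein genes that passed moved as follows. In this section the share of all genes is given only for the fit with the length trend removed. Genotype under H went to 1 with DESeq2, 2 without the filter and 4 with the length trend removed, against 0. The 4 were lower in GH, as were 1.98% of all genes. The letter comparison averaged over genotypes gave 2 without composition scaling, 42 with DESeq2, 31 without the filter and 1 with the replicate block, against 7. With the length trend removed it gave 11, all higher in H, as were 2.83% of all genes. The letter comparison in C libraries gave 4 without composition scaling and 5 with DESeq2, against 2. With the length trend removed, 2 were lower and Rpl22l1 was higher (0.38, adjusted p = 0.0155). Of all genes 7.06% were then lower and 8.84% higher. Genotype averaged over letters gave 70 with that trend removed, against 75. The 70 were lower in G, as were 11.7% of all genes. The letter comparison in G libraries gave 30 with the length trend removed, against 52. The 30 were higher in GH, as were 0.498% of all genes. Leaving out 1 library gave 49 to 84 for genotype averaged over letters, 0 to 2 under H, 65 to 84 under V, 0 to 55 for letter averaged over genotypes, 0 to 4 in C libraries, 0 to 81 in G libraries and 3 to 73 for the difference between the contrasts. The cause was not tested. A fit without a library holds fewer samples, and the counts moved both down and up.

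Over all genes tested, same-numbered libraries did not deviate together from the means of their codes (r from -0.04 to 0.04). These values, from 2 libraries in each code, do not settle whether the numbers pair the libraries. With the replicate block, 84 genes fell under V, 42 rose in GH over GV and 46 passed for the difference between the contrasts. With 2 libraries in each group, the spread of each gene is estimated from few values.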
